A study of Rattus norvegicus with 4 samples.

Results

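Scavenger receptors for lipid particles were followed through 8 genes of classes A, B, E and H: Msr1, Marco, Colec12, Cd36, Scarb1, Olr1, Stab1 and Stab2. Members were the probes, other than controls, whose gene name in the array files was one of these. The name was found for 6 of the 8 genes, on 8 of the 30367 probes, out of 22136 gene names in all. No probe was named Stab1 or Stab2, the class H receptors, or listed a RefSeq transcript of theirs, and both are not analysed here. The arrays came from 8 to 12 week old male WKAH rats, an inbred strain, given liposomes (2 arrays) or saline (2 arrays), and spleens were taken 24 h later. All 4 samples were spleen cells from which bead-bound MHC class II-positive cells had been removed and CD11b/c-positive cells then kept. The fraction was enriched, not purified, and the labels call it splenocytes. What the liposomes were made of, and their dose, is not given in the sources used here. Nothing in the labels ties the 2 arrays of a group to separate animals, so a p-value covers the spread among these arrays alone and that spread could be technical.

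Scavenger receptors are unrelated families of cell surface proteins that bind polyanionic ligands, among them oxidised or acetylated low density lipoprotein (LDL), anionic phospholipids, dying cells and bacteria. Class A receptors are trimers with a collagen-like stalk, class B receptors cross the membrane at both ends and bind lipoproteins and fatty acids, and the class E receptor is a C-type lectin. In the spleen Marco is a known marker of marginal zone macrophages, which capture particles from blood. Class A receptors take the whole particle into the cell, whereas Scarb1 transfers cholesteryl ester from high density lipoprotein (HDL) without taking up the particle.

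The probes of the class A genes are shown first, because the Marco probe holds a collagen-like repeat. Capitals mark GGN codons, which encode glycine, where at least 2 of them recur with a pair of other codons between, as in a collagen-like stretch.
Msr1: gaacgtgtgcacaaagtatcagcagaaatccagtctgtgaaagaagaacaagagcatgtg
Marco: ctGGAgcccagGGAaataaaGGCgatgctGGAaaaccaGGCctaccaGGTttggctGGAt
Colec12: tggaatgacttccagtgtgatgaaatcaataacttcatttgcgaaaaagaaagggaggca
The Marco probe held 7 such codons in a row, and the Msr1 and Colec12 probes had no such run. Of the 30367 probes of 60 bases on the array, 0.0362% held 6 or more at that spacing. The Marco probe was placed on unassigned sequence of the rat assembly rn4 (9449917 to 9450079), a span of 163 bases for a 60-base probe. The Msr1 probe lies on chromosome 16 (56293586 to 56293645) and the Colec12 probe on chromosome 18 (1185622 to 1185681), both on the plus strand.

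Of the class B genes, which had 2 probes each, the dimmer probe of each is shown, because it read the larger difference of its gene. Capitals mark the codons of the only reading frame without a stop codon (46.8% of the array's probes have exactly 1 such frame).
Scarb1: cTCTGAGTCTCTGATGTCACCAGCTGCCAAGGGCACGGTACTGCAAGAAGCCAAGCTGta
Cd36: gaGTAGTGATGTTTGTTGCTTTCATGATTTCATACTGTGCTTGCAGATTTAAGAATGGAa
On rn4 these lie on chromosome 12 (32453915 to 32453974) and chromosome 4 (13522273 to 13522332). The brighter probes lie at 32457588 to 32457647 for Scarb1 and at 13525426 to 13525485 for Cd36. The Olr1 probe lies on chromosome 4 as well (166747403 to 166747462), on the minus strand. No annotation of rn4 was used, so exon, intron and UTR are not given.

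Between 61.3% and 66.3% of non-control spots were well above background per array, and 0 were saturated. All 4 arrays shared 1 slide and 1 scan. Intensities are given as deposited, and log2 values and fold changes after subtraction of each array's 75th percentile, which lay at 1091 and 1052 intensity units on the liposome arrays and at 962 and 993 on the saline arrays. Levels of different probes are not comparable, so the receptors were not ranked by level. Of the 6 receptor genes with a probe, 5 were well above background on all 4 arrays and entered the test over 12858 genes. By limma 2 of the 5 rose (Msr1 and Scarb1), 0 fell and 3 did not pass at an adjusted p of 0.05, while 8.89% of all genes tested passed, 4.83% upward and 4.06% downward. With median scaling 852 genes lay higher and 442 lower, against 621 and 522 as reported. At an unadjusted p under 0.05 there were 4 of the 5, against 32.5% of all genes. The added ones, Cd36 and Colec12, were lower, as were 16.6% of all genes. The median log2 fold change of the 5 was -0.28, and that of all genes -0.04. These RNA levels are per fraction: fewer cells of a type and less RNA per cell cannot be told apart.

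**Figure D1:**
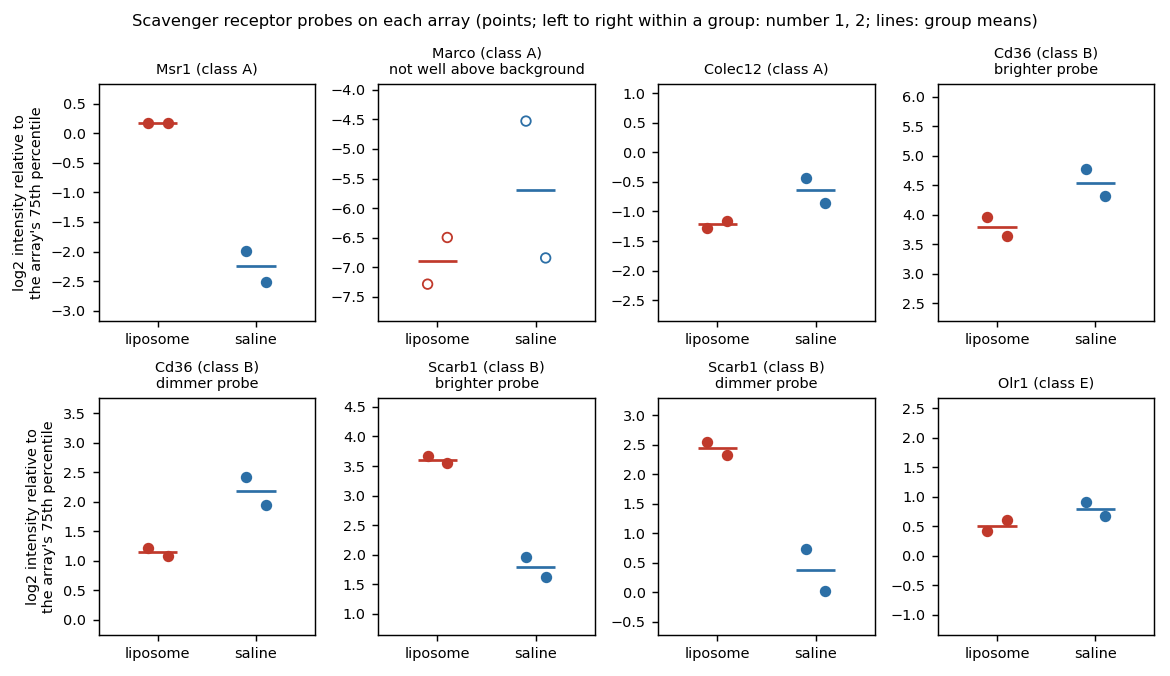
Log2 intensity of each of the 8 receptor probes relative to the array's 75th percentile, with liposome arrays (red) left of saline arrays (blue), 2 points a group and a line at each mean, on axes of equal length. Msr1 and both Scarb1 probes lay higher on the liposome arrays, Cd36 lay lower on both probes, and Marco (open points) was not well above background on any array.

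Msr1, the founding class A receptor, which takes up modified LDL into macrophages, showed the largest difference of the 5 tested. Its intensity was 1227 and 1183 on the liposome arrays, against 243 and 174 on the saline arrays. The liposome arrays lay together and both well above the saline arrays. The log2 value was 0.17 and 0.17 on the liposome arrays, against -1.99 and -2.51 on the saline arrays. Msr1 rose 5.35-fold (log2 2.42 ± 0.20 SE, 95% interval 1.87 to 2.97, limma adjusted p = 0.0153), the 69th largest rise of 12858 genes. Between arrays with the same number in their titles, it differed by 2.15 (number 1) and 2.68 (number 2). Msr1 passed without saline 1 or saline 2 (limma adjusted p = 0.029 and 0.0337). There the spread within groups comes from the liposome arrays alone, which for Msr1 were nearly identical, so this pass is no sign of stability. Without liposome 1 or liposome 2 Msr1 did not pass (0.0941 and 0.0947), where 0 of all genes passed.

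Marco, the class A receptor of marginal zone macrophages, was not well above background on any of the 4 arrays. Its intensity was 6.99 and 11.6 on the liposome arrays, against 41.7 and 8.65 on the saline arrays. The groups overlapped, and with neither well above background no fold is read from them. The scanner software had put a surrogate in place of the signal on 3 of the 4 arrays. On saline 1 the signal was the spot's own, above background but not well above it. This rests on a single probe, the one with the collagen-like sequence above, and a low signal there is a bound on that probe only. Whether that sequence affects the signal was not tested.

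Colec12, a collectin and class A receptor known mainly from endothelium and stroma, had intensities of 452 and 470 on the liposome arrays, against 715 and 548 on the saline arrays. The liposome arrays lay below both saline arrays, which themselves were spread apart (log2 SD 0.08 in liposome and 0.30 in saline, n = 2 each). The log2 fold change was -0.57 ± 0.18 SE (95% interval -1.05 to -0.09, limma adjusted p = 0.115), so it did not pass over all genes. Between the arrays numbered 1 it was -0.84, and between those numbered 2 it was -0.31.

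The class B genes Scarb1 and Cd36 had differences of opposite sign. Scarb1, the HDL receptor, had intensities of 13824 and 12364 on the liposome arrays, against 3743 and 3068 on the saline arrays, by its brighter probe. The dimmer probe read 6363 and 5271 on the liposome arrays, against 1592 and 1007 on the saline arrays. Both probes thus lay higher on both liposome arrays, with no overlap. Scarb1 rose 3.52-fold by the brighter probe (log2 1.82 ± 0.15 SE, 95% interval 1.41 to 2.23, limma adjusted p = 0.0152), the 138th largest rise. The dimmer probe gave 4.17-fold (log2 2.06 ± 0.27 SE, limma adjusted p = 0.0307 over all probes). By number the brighter probe differed by 1.70 and 1.93. The adjusted p was 0.0324 without saline 1 and 0.0396 without saline 2, but 0.0989 without liposome 1 and 0.0947 without liposome 2, with the spread within groups taken from the group left whole.

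Cd36, which binds oxidised LDL and takes up long-chain fatty acids, had intensities of 16927 and 13111 on the liposome arrays, against 26260 and 19707 on the saline arrays, by its brighter probe. The dimmer probe read 2539 and 2228 on the liposome arrays, against 5131 and 3834 on the saline arrays. Both probes lay lower on both liposome arrays, and number 1 read above number 2 in each group. The brighter probe gave a log2 fold change of -0.74 ± 0.21 SE (95% interval -1.32 to -0.17, limma adjusted p = 0.101), and the dimmer probe -1.03 ± 0.19 SE (limma adjusted p = 0.0521 over all probes). Neither passed. With the title number as a block, the brighter probe's difference passed (limma adjusted p = 0.0329), at an unchanged size.

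Because Scarb1 and Cd36 were read on the same arrays, their ratio does not depend on the scaling between arrays. Relative to the saline mean, the log2 ratio of Scarb1 to Cd36 lay at 2.45 and 2.66 on the liposome arrays, against -0.06 and 0.06 on the saline arrays, a 5.89-fold difference. The ratio of Msr1 to Colec12, within class A, lay at 3.05 and 2.94 on the liposome arrays, against 0.05 and -0.05 on the saline arrays. In each pair the first receptor already lay higher, and the second lower, on both liposome arrays than on either saline array. The ratios were thus bound to lie apart between the groups and add no support to those differences. These pairs were picked after the values were seen, and no test was run: with 2 arrays a group, the smallest exact permutation p is 0.333.

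Olr1, the lectin-like class E receptor for oxidised LDL, had intensities of 1458 and 1592 on the liposome arrays, against 1806 and 1583 on the saline arrays. The groups overlapped as deposited and lay narrowly apart after scaling, with log2 values of 0.42 and 0.60 in liposome and 0.91 and 0.67 in saline. The log2 fold change was -0.28 ± 0.14 SE (95% interval -0.66 to 0.09, limma adjusted p = 0.235). After scaling, the groups of all 5 tested receptors lay apart, 2 of them higher and 3 lower in liposome. Groups lay apart for 65.5% of all genes, 30.4% higher and 35.1% lower, so that count says little of the receptors.

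**Figure D2:**
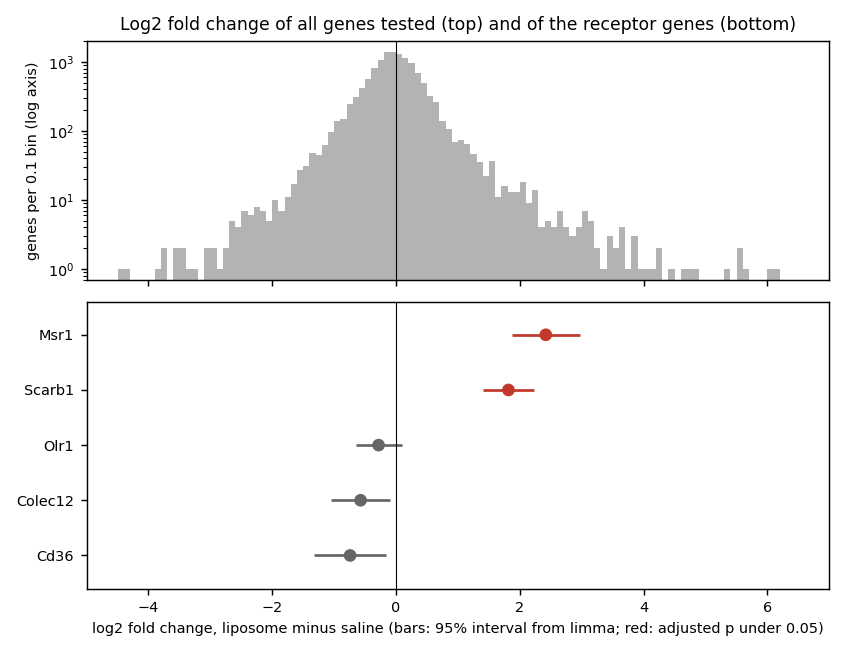
Top: distribution of the log2 fold change, liposome minus saline, over all 12858 genes (log count axis). Bottom: the 5 tested receptor genes with 95% intervals from limma (2 arrays per group), Msr1 and Scarb1 (red) past the threshold at 2.42 and 1.82, the other 3 (grey) below 0 and not past it.

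The genes whose pattern over the 4 arrays was most like that of each risen receptor were found by the root mean square difference of log2 values centred on each gene's mean, among 12857 other genes. Closest to Msr1 were Stom, Myo7a and Rab7b, with differences of 0.07, 0.08 and 0.10 log2 units. Closest to Scarb1 were Amdhd2, BC158826 and Plxdc1, at 0.02, 0.04 and 0.04. With 4 arrays this measures little more than a similar fold change: 2.28, 2.28 and 2.24 on the log2 scale for the first set and 1.83, 1.74 and 1.75 for the second.

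Other scavenger receptors were tested beside them. Of 22 listed genes 21 had a probe, 4 of these (Scara3, Scara5, Scarf2 and Megf10) were not well above background on any array, and 16 were tested. By limma 3 rose, 2 fell and 11 did not pass, with a median log2 fold change of 0.01. Scarb2, the lysosomal member of class B, rose 2.25-fold, with intensities of 1219 and 1056 in liposome and 479 and 441 in saline (limma adjusted p = 0.021). Lgals3, galectin 3, which binds glycated and oxidised proteins, rose 2.36-fold. Trem2, a receptor for lipids and lipoproteins, rose 3.02-fold, and the limma adjusted p was 0.0228 for Lgals3 and 0.0133 for Trem2. The cysteine-rich genes Cd5l and Cd163 fell by 2.13 and 0.96 in log2 units (0.0118 and 0.0494 by limma, adjusted p). Cd163 did not pass with median scaling, with quantile normalization, with probes averaged per gene or without saline 1, and neither Cd163 nor Scarb2 passed without saline 2. Without either liposome array, and without the filter on dim probes, 0 of the 43 calls among all the context and marker lists remained.

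Of 15 tested partners and adaptors of these receptors 1 rose, 0 fell and 14 did not pass by limma, with 7 of 15 at an unadjusted p under 0.05. Over all genes 8.89% passed and 32.5% had an unadjusted p under 0.05, so 1 of 15 passing is no more than that share. The risen gene was Gipc1, a PDZ adaptor (1.57-fold, limma adjusted p = 0.0417), whose call was lost without saline 1 or saline 2. Pdzk1, the adaptor that holds Scarb1 at the cell surface in mouse liver, and Gulp1, Cav1 and Trim67 were not well above background on any array.

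Among 16 transcription factors known at these genes 4 rose, 1 fell and 11 did not pass, with a median log2 fold change of 0.54. Nr1h3, the sterol sensor LXR alpha, rose 4.24-fold, Maf, a factor of macrophage differentiation, 3.64-fold and Srebf1, a regulator of fatty acid synthesis, 3.17-fold (limma adjusted p = 0.00881, 0.0112 and 0.0162). Pparg, a fatty acid sensor for which Cd36 is a known target, had intensities of 3611 and 3461 in liposome and 2252 and 2243 in saline. It was named after its value was seen and rose 1.43-fold (limma adjusted p = 0.0494), though not with quantile normalization, averaged probes, the replicate block, or saline 1 or saline 2 left out. Srebf2, a regulator of cholesterol synthesis, fell by 0.66 in log2 units (limma adjusted p = 0.0476). Srebf2 did not pass without saline 1, nor Srebf2 and Srebf1 without saline 2. Spi1, which encodes PU.1, known from human cells at the MSR1 promoter, had a log2 fold change of 0.22 (limma adjusted p = 0.374), also picked after its value was seen.

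Of 17 tested genes that handle lipid after uptake 9 rose, 0 fell and 8 did not pass (limma, median 0.97). Among the 9, Lpl was kept by the filter through its liposome arrays alone. Soat1, which esterifies cholesterol for storage, and Npc2, which carries cholesterol out of the lysosome lumen, were among the risen members, 2.17-fold and 2.80-fold (limma adjusted p = 0.0156 and 0.0232, picked after their values were seen, Npc2 not past the threshold without saline 2). The 3 largest rises were those of Abca1, Fabp5 and Apoe, at 3.91, 3.86 and 3.67 log2 units (limma adjusted p = 0.00752, 0.00752 and 0.0124).

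Phosphatidylserine receptors and their bridging proteins, a parallel route for anionic lipid surfaces, had 9 tested genes of 15, of which 2 rose, 1 fell and 6 did not pass. Mertk lay 6.38-fold higher with its saline values raised to at least the array's lowest value well above background (limma adjusted p = 0.016 without that step). With 0 of 2 saline arrays well above background, Mertk was kept by the filter through its liposome arrays alone. Its call is thus no independent support, and its fold is not a firm bound. Gas6, which encodes a ligand of Mertk, rose 2.50-fold (limma adjusted p = 0.0329). The related receptor gene Axl fell by 1.18 in log2 units (limma adjusted p = 0.0492). It was well above background on 1 of 2 liposome arrays, and so was kept by the filter through its saline arrays alone. Axl did not pass without saline 1 or saline 2, with quantile normalization, with the mean of probes or with a trend in the prior. With normexp, which adds 50 to each signal, Mertk and Axl lay at 1.47 and -0.59 on the log2 scale, against 2.73 and -1.18 as reported.

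**Figure D3:**
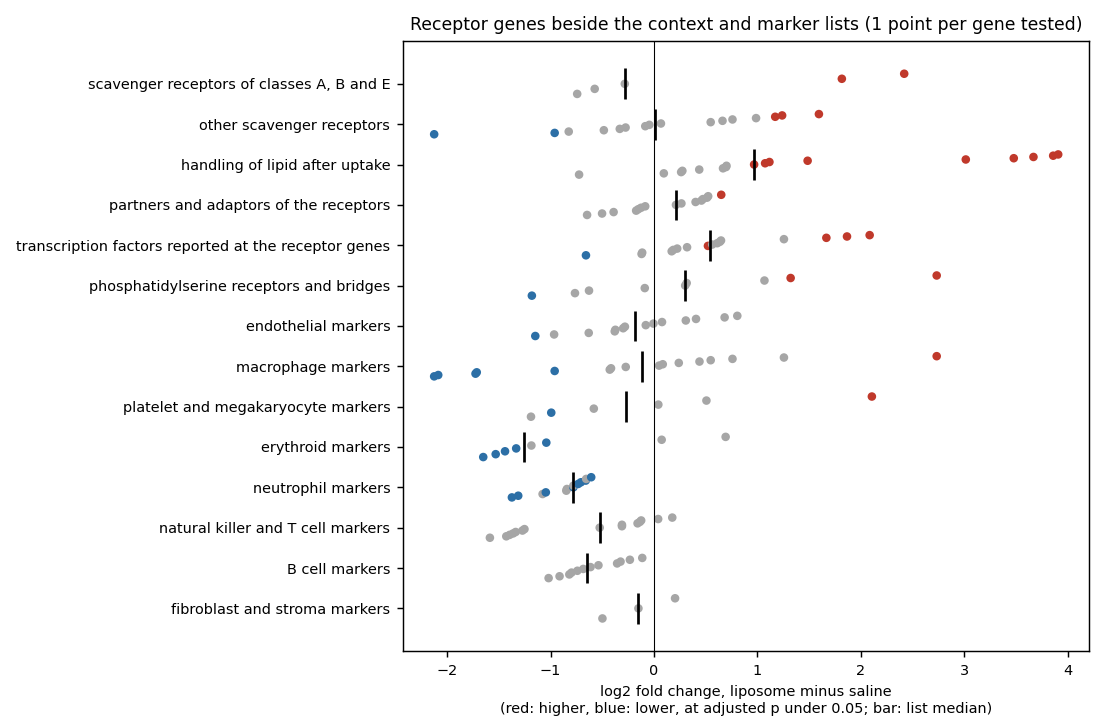
Log2 fold change, liposome minus saline, of the 5 receptor genes (top) and of each tested gene of the context and marker lists below, with red for higher and blue for lower at an adjusted p under 0.05, grey for neither, and a bar at each list's median. The medians run from -1.26 (erythroid markers) to 0.97 (lipid handling).

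Several receptors are also made by other cells of the spleen, so the markers of those cells are given beside them, as the sum of each list's tested genes in multiples of the array's 75th percentile. A sum is ruled by the brightest probes of its list, so it is set against the same sum on other arrays only. The macrophage sum was level, at 332 and 342 on the liposome arrays, against 332 and 343 on the saline arrays. Its brightest genes, Lyz2 and Aif1, had log2 fold changes of 0.08 and 0.24. By limma 1 of its 16 tested genes rose, Mertk, which the filter kept through its liposome arrays alone. Another 5 fell, led by Cd5l, C1qc and C1qa and joined by C1qb and Cd163 (named after their values were seen). C1qa, C1qb and Cd163 did not pass without saline 1, nor those and C1qc without saline 2, and Vsig4 was not well above background on any array.

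Endothelial cells are a known source of Colec12, Cd36 and Scarb1. The endothelial sum was 20.9 and 18.9 on the liposome arrays, against 31.3 and 28.6 on the saline arrays. Of 14 tested genes 0 rose, 1 fell and 13 did not pass. That gene was Kdr, a receptor for vascular growth factor, which fell by 1.15 in log2 units (limma adjusted p = 0.0398, but not past the threshold with median scaling or without saline 2). The brightest, Plvap and Pecam1, had log2 fold changes of -0.63 and -0.38. By sign alone 5 of the 14 lay higher and 9 lower, and Tie1, an endothelial receptor kinase picked after its value was seen, lay highest at 0.80 (limma adjusted p = 0.0947). Of the endothelial genes 6 of 20 with a probe (Flt1, Tek, Emcn, Cldn5, Cd34 and Sox17) were not well above background on any array. Stroma markers Dcn, Lum, Pdgfra and Pdgfrb, with 4 more of 12, were not well above background either, and the sum of the 3 tested was 28.1 and 27.0 in liposome and 46.7 and 32.3 in saline. None of these 3 passed by limma, and 0 had an unadjusted p under 0.05 (the bright genes Fn1 and Col1a1 lay at -0.50 and -0.15, and Col1a2 at 0.20). Fn1 made up most of that sum, with intensities of 30157 and 27957 in liposome and 44394 and 31570 in saline. The endothelial sum, made up mostly of Plvap, Pecam1 and Kdr, thus lay lower in liposome beside lower values of Cd36 and Colec12 and a higher value of Scarb1. The part of these cells in the receptor values was not tested.

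Platelets and young red cells are known, from human blood, to carry CD36. The platelet sum was 4.45 and 4.11 in liposome and 5.71 and 4.12 in saline. Of 6 tested genes 1 rose (Pf4, also made by macrophages, 4.30-fold) and 1 fell (Gp9, by 0.99 in log2 units, not past the threshold without saline 1 or saline 2), while the brightest, Nfe2 and P2ry12, lay at -1.19 and 0.51 without passing. The erythroid sum was 33.9 and 32.6 in liposome and 88.1 and 90.8 in saline, with 5 of 8 tested genes lower and 0 higher: Hbe2, Hbb and Hba-a1, and Alas2 and Slc4a1, the last pair named after their values were seen and not past the threshold without saline 1 or saline 2. The neutrophil sum was 161 and 184 in liposome and 278 and 320 in saline. There 8 of 13 tested genes fell and 0 rose, led by Cd177, Ngp and Lcn2, and S100a9 and S100a8, the brightest, lay at -0.73 and -0.78. Without saline 1 or saline 2, Lcn2, S100a9, S100a8, Mmp8, Cxcr2 and Padi4 did not pass, so of the 8 only Cd177 and Ngp did. Nor did Lcn2 and S100a9 pass with median scaling, Lcn2 with quantile normalization or S100a9 with averaged probes. The part of these cells in the Cd36 value was not tested.

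The gate was checked by its own genes, picked after their values were seen: Itgam, which encodes CD11b, had log2 values of 2.33 and 2.25 in liposome and 2.12 and 1.55 in saline. The MHC class II genes Cd74 and RT1-Da, whose cells the beads should remove, lay above each array's 75th percentile as well, RT1-Da at 5.75 and 5.66 in liposome and 6.20 and 6.05 in saline. The lymphocyte lists had 0 calls by limma. The B cell sum was 45.7 and 35.8 in liposome and 65.1 and 61.9 in saline. Among its 12 genes 7 had an unadjusted p under 0.05, against 32.5% of all genes, and Cd79b, among the brightest, lay at -0.61. The natural killer and T cell sum was 26.8 and 61.9 in liposome and 42.9 and 122 in saline, higher on number 2 in both groups, with 1 of 15 genes at an unadjusted p under 0.05. The bright genes Nkg7 and Cd3g had log2 fold changes of -1.27 and -0.16.

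**Figure D4:**
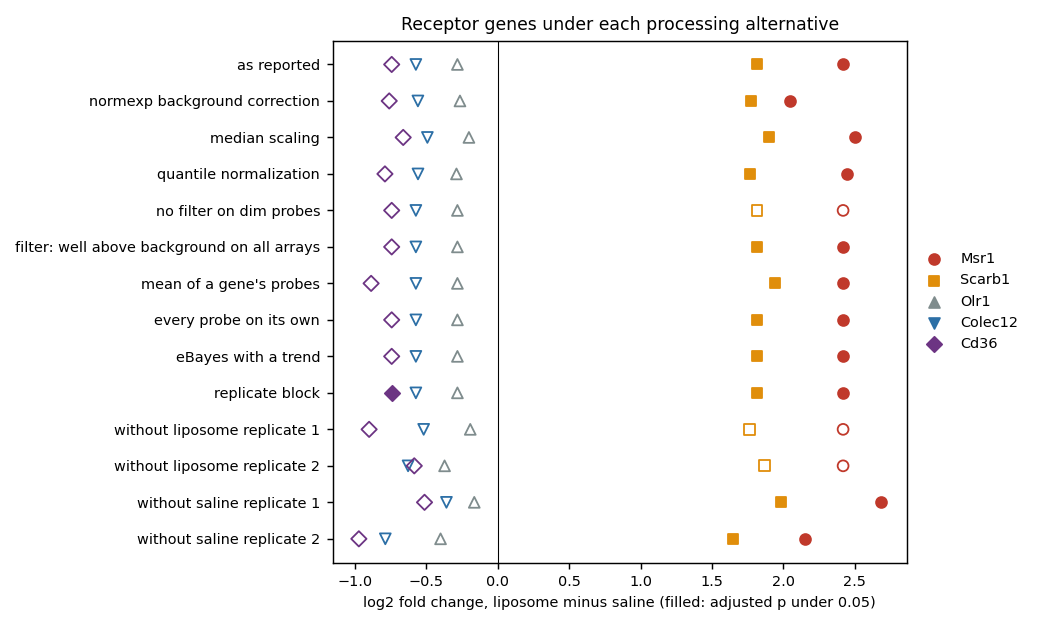
Log2 fold change of the 5 receptor genes, liposome minus saline, as reported and under 13 alternatives, filled where the adjusted p was under 0.05. Msr1 ran from 2.05 to 2.68 and Scarb1 from 1.65 to 1.98, open without the filter on dim probes and without either liposome array, and Cd36 was filled with the replicate block alone.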

How the data were processed

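The deposited values are spot intensities of 1-colour (Cy3) arrays, from the scanner software Agilent Feature Extraction (version 10.7.3.1, per the submitters' processing notes). Per the file headers, spatial and multiplicative trends were removed within each array, and signals below background were replaced with surrogate values. The labels give 0.2 ug of total RNA per labelling.

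Control spots and outlier spots were left out, log2 values of a probe's spots averaged, and each array's 75th percentile subtracted. A probe was kept if both arrays of 1 or both groups read it well above background, accessions of 18006 of 30367 probes gave current gene symbols (8186 kept the file's name, 4175 had none), and the brightest probe stood for a gene. The fit over all 12858 genes used limma (version 3.58.1, under R 4.3.3), with Benjamini-Hochberg adjustment over all of them and n = 2 arrays per group. Signed values are liposome minus saline. Named from each context list were up to 3 genes called in each direction, with the 2 brightest of marker lists, and the 3 most alike genes per called receptor. The members and lists were chosen with earlier results of these data known. For a gene well above background on neither array of a group, the fold was also computed with values there raised to at least the array's lowest value well above background. Some context genes are not reported here.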

Additional observations from a re-analysis of the deposited data

How the results depend on the processing

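Msr1, Scarb1, Colec12, Cd36 and Olr1 kept their direction in all 13 alternatives. Msr1 and Scarb1 each lost the call in 3 of them (no filter on dim probes, adjusted p = 0.165 and 0.17, and without either liposome array), and Cd36 gained one with the replicate block. The count of receptor genes called, 2 as reported, was 0 without the filter and ran from 0 to 2 with an array left out. Over all genes limma called 1143, against 1720 with normexp, 1962 with a trend in the prior, 1816 with the replicate block and 0 of 21971 without the filter (smallest adjusted p 0.143, 3005 at an unadjusted p under 0.05). With an array left out, and the genes kept, the count ran from 0 to 499. The 0 stands for each left-out liposome array, where the spread comes from the saline arrays alone (a lone array is taken to vary like them; smallest adjusted p 0.0558 and 0.0657, 2177 and 2397 genes at an unadjusted p under 0.05). For these changed counts the cause was not tested. Without a saline array the spread comes from the liposome arrays alone. In the titles each number follows the letters exp, in both groups alike. The labels do not say whether arrays with the same number shared a day, an animal pair or a batch. Deviations of same-numbered arrays correlated at 0.355 over genes, and the replicate block leaves 45.6% of calls higher, against 54.3% as reported. Of 43 context genes called, 25 stayed so without saline 1 and 19 without saline 2, and 0 changed sign. With every array required to be well above background, 40 of the 43 context calls stayed, and Lpl, Mertk and Axl were not tested. Marco, without the filter, lay at -1.21 ± 0.95 SE (limma adjusted p = 0.667). As 3 of its 4 values were surrogates and 0 were well above background, this is not a measured difference. For arrays, their number limits the precision.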
